A study of Mus musculus with 19 samples.

Results

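The genes described here make the machinery that brings new proteins into the endoplasmic reticulum (ER), trims and glycosylates them there, and removes those that do not fold. They were taken from a list of 45 symbols, matched to the 3 deposited tables without regard to letter case. They comprise 7 genes of the signal recognition particle (SRP) and its receptor, 9 of the Sec61 channel and its associated proteins, 5 of signal peptidase, 10 of the oligosaccharyl transferase and glucosidase II, 11 of ER-associated degradation (ERAD) and 3 stress-induced proteins of the ER lumen. Of the 45 genes, 40 were in the astrocyte table of 6376 genes, 33 in the microglia table of 3067 and 38 in the monocyte table of 3776. All 3 tables shared 31 of them, out of 2606 shared genes and 6843 genes in any table.

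The study gave mice a lentivirus in the brain and sorted cells from the central nervous system during experimental autoimmune encephalomyelitis (EAE), an immune attack on myelin. All animals were wild type C57Bl/6 females at P85 immunised for EAE with MOG35-55, a myelin peptide, at 25 µg per mouse in complete Freund's adjuvant (CFA). The virus was pLenti-Gfap-GFP-shScramble, with a hairpin of scrambled sequence (shScrmbl), or pLenti-Gfap-GFP-shXbp1, with a hairpin against Xbp1 (shXbp1). Both place GFP and the hairpin under the Gfap promoter, an astrocyte promoter, so that microglia and monocytes are not its intended targets. The libraries were 4 shScrmbl and 4 shXbp1 of astrocytes, 4 and 3 of microglia, and 2 and 2 of monocytes, 19 in all. Per the labels each nervous system was processed on its own, so a library was read as 1 mouse. Virus and EAE were common to all these groups.

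A protein bound for secretion or for a membrane starts with a signal sequence, which SRP recognises as it leaves the ribosome. SRP docks at its receptor, the chain passes through the Sec61 channel, signal peptidase cuts the signal sequence off, and the oligosaccharyl transferase adds a preformed glycan to asparagine residues. Glucosidase II then trims that glycan as part of the folding cycle, and ERAD sends chains that fail back to the cytosol for degradation by the proteasome. XBP1, the factor the hairpin was aimed at, is a factor that switches on genes of the unfolded protein response, and many genes of these steps are among its known targets in secretory cells.

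XBP1 and ATF6 act through short promoter elements, so the promoters of the listed genes were searched for 3 of them on both strands. The elements were the ER stress response element (ERSE), which is CCAAT, any 9 bases and CCACG, then ERSE-II, which is ATTGG, any base and CCACG, and the unfolded protein response element (UPRE) TGACGTGG. None of these patterns overlapped in a listed promoter. RefSeq promoters (GRCm38.p6, from 250 bases before to 50 after a transcription start) were found for 35 of the 45 genes, in 37 promoters. Each element was present once, in 1 gene. The ERSE was in Syvn1, which encodes the ERAD ubiquitin ligase HRD1, and in 0.119% of all 32851 promoters of that length. ERSE-II was in Herpud1, an ERAD scaffold protein, and in 0.0365% of all promoters. The UPRE was in Vcp, the ATPase that extracts ERAD substrates from the membrane, and in 0.676% of all promoters. The stretches from 130 to 21 bases before the start of these 3 genes are shown with the element in capitals, because they carry the letters through which the targeted factor is known to act.
Syvn1, chr19:6046446-6046555, plus strand: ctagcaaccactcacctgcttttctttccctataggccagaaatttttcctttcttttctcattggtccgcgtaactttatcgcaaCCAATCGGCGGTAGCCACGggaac
Herpud1, chr8:94386299-94386408, plus strand: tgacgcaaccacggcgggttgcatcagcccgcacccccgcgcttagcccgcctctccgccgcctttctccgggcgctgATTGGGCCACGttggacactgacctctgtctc
Vcp, chr4:43000528-43000637, minus strand: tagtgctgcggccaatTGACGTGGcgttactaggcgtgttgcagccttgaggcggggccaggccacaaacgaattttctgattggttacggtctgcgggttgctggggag
The element began 44 bases before the start in Syvn1, 52 in Herpud1 and 114 in Vcp. A match is a description of these letters and not of binding.

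Depth set the precision of every value below. Libraries held 32842 to 302003 counts in astrocytes, 10039 to 122002 in microglia and 15654 to 112676 in monocytes. The deposited value, called signal here, is a count that the authors scaled to library size, and 1 count was worth a signal of 4.22 to 27.6, 9.33 to 76.0 and 9.11 to 50.6 in the 3 cell types. Xbp1 itself had a mean signal of 49.8 ± 30.3 (SD, n = 4) in shScrmbl and 49.5 ± 22.3 (n = 4) in shXbp1 astrocytes, from 22 and 28 counts, with a limma log2 difference of 0.12 (95% interval -1.33 to 1.57, adjusted p = 0.966). It had 51.3 ± 41.9 (n = 4) and 48.3 ± 42.0 (n = 3) in microglia, and 154 ± 39.8 (n = 2) and 214 ± 126 (n = 2) in monocytes. A lower level of the targeted transcript was not detected in astrocytes at this depth, and shXbp1 below means the libraries labelled so. Of 12 astrocyte markers, 10 were in the astrocyte table, while Gfap and Ntsr2 were not in it. Those 10 summed to a signal of 2319 to 2796 in shScrmbl and 2904 to 3571 in shXbp1 astrocytes, with no overlap. The 8 choroid plexus markers summed to 211692 to 308624 in shScrmbl and 148274 to 273323 in shXbp1 astrocytes, which overlapped. The part of these sums in the differences below was not tested. In these bulk libraries, fewer cells of a type and less RNA per cell cannot be told apart.

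The genes were few counts each, and some were in no table. Syvn1, Sdf2l1, an ER lumen protein, and Hyou1, an ER chaperone, were in none of the 3. The astrocyte table also lacked Spcs3, a signal peptidase subunit, and Edem1, which marks glycoproteins for ERAD. The microglia table also lacked Ssr3, Spcs3, Sec11c, Srp19, Srp54a, Ostc, Stt3a, Stt3b and Manf, and the monocyte table Srp19, Srp54a, Ostc and Sel1l. Sels was listed under the symbol Vimp and was matched through a RefSeq synonym. All 40, 33 and 38 genes in the tables passed the filter on low values. Srp54a has near-identical copies in the mouse genome, and Spcs3 has near copies in Arxes1 and Arxes2, so counts of both are uncertain.

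The summed share of counts in the listed genes was close between viruses in astrocytes and microglia and separated in monocytes. In astrocytes it was 0.466%, 0.370%, 0.465% and 0.451% in shScrmbl replicates 1 to 4 and 0.455%, 0.463%, 0.481% and 0.463% in shXbp1 replicates 1 to 4. Replicate 2 of shScrmbl, the deepest library, was the lowest, with an exact 95% binomial interval of 0.349% to 0.393%, and the other 7 lay within 0.451% to 0.481%. The same library had the highest sums of markers of 2 other cell types. Its microglia markers, 10 of 10 in the table, summed to 3032, against 533 to 855 in the other shScrmbl and 916 to 1347 in the shXbp1 libraries. Its monocyte and macrophage markers, 4 of 10 in the table, summed to 3821, against 221 to 552 and 136 to 707. The part of depth and of these markers in its low share was not tested. In microglia the share was 0.576%, 0.475%, 0.410% and 0.554% in shScrmbl and 0.528%, 0.398% and 0.532% with shXbp1, and the groups overlapped. In monocytes it was 0.537% (0.485% to 0.592%) and 0.514% (0.473% to 0.557%) in shScrmbl, and 0.728% (0.601% to 0.874%) and 0.666% (0.600% to 0.736%) in shXbp1. Both shXbp1 monocyte libraries were above both shScrmbl libraries, and their intervals did not touch. These intervals, exact Clopper-Pearson, cover counting error only.

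**Figure D1:**
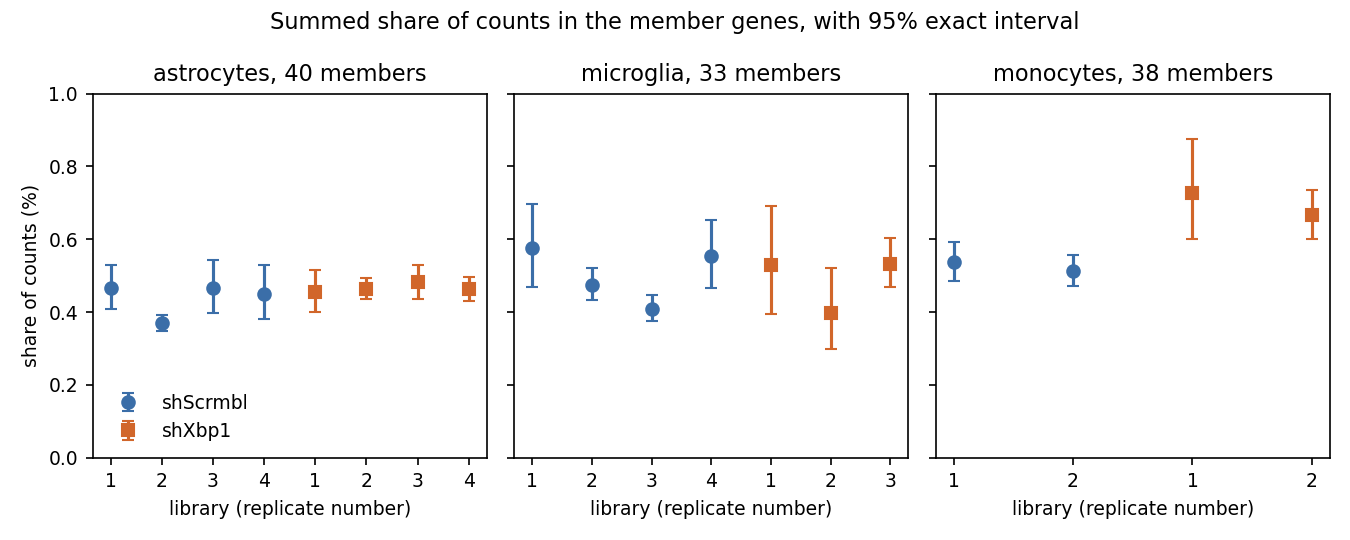
Percent of each library's counts that fell in the listed genes, by cell type, with the replicate number on the x axis, circles for shScrmbl, squares for shXbp1 and bars for the exact 95% binomial interval. The 2 shXbp1 monocyte libraries (0.666% and 0.728%) sit above the 2 shScrmbl ones (0.514% and 0.537%), and the groups overlap in astrocytes and microglia.

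In sorted astrocytes, the cells the virus was built for, none of the 40 listed genes passed the test between viruses. The genes nearest to it were Prkcsh and Srpr, both higher with shXbp1, and Sel1l and Srp54a. The test asks, gene by gene, whether the shXbp1 libraries differ from the shScrmbl libraries by more than the libraries within a group do. It was limma on log2(signal + 1) with Benjamini-Hochberg adjustment over 6366 genes. Its p-values weigh the difference against the spread between libraries of a group. limma called 0 genes of the table (0%), edgeR's quasi-likelihood test on the recovered counts called 1 (0.0157%) and DESeq2 called 0, none of them a listed gene. At an unadjusted p under 0.05 there were 2 of the 40 and 298 of all 6366 genes by limma, 1 and 418 by edgeR, and 0 and 131 by DESeq2. Without shScrmbl replicate 2 the listed genes called were again 0 by limma and by edgeR, with medians of 0.13 and 0.09. By limma 28 were higher and 12 lower, with a median log2 difference of 0.11 against 0.42 for all genes tested. By edgeR 26 were higher and 14 lower, with a median of 0.09 against 0.05. Of all genes, 68.2% were higher by limma and 53.2% by edgeR, against 70% and 65% of the listed genes. Every shXbp1 library was above every shScrmbl library for 2 of the 40 genes, against 2.37% of all genes, and below for 0 of 40, against 0.785%.

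Genes of SRP and its receptor had the highest median among the astrocyte roles with more than 1 gene, 0.64 by limma and 0.60 by edgeR, with 6 of 7 higher by both. Of all genes tested, 68.2% were higher by limma and 53.2% by edgeR, with medians of 0.42 and 0.05. Srpr, which encodes the receptor subunit that docks SRP at the ER, had a signal of 20.1, 33.7, 0 and 0 with shScrmbl and 51.2, 48.1, 52.0 and 39.8 in shXbp1 astrocytes. All 4 shXbp1 libraries were above all 4 shScrmbl libraries, and the 2 shScrmbl libraries at 0 were the 2 shallowest. The log2 difference was 3.22 ± 1.49 (SE; adjusted p = 0.824, limma), and 1.02 by edgeR (adjusted p = 0.849). Srp54a, the subunit that binds the signal sequence, was at 0, 4.22, 0 and 0 in shScrmbl and at 17.1, 28.9, 0 and 59.8 with shXbp1. That is 1 count against 16, a pooled ratio of 13.0 with a counting interval of 2.01 to 544. Its log2 difference was 3.15 ± 1.77 by limma (adjusted p = 0.824) and 3.02 by edgeR (adjusted p = 0.634). Srp14, which helps SRP pause translation and was the most abundant gene of the role, had a mean of 268 ± 62.8 (SD, n = 4) in shScrmbl and 222 ± 89.9 (n = 4) in shXbp1.

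The 2 most abundant genes of the Sec61 role, Sec61g and Sec62, had close means under both viruses in astrocytes, and less abundant genes of the role differed in both directions without passing the test. Sec61g, the gamma subunit, gave 522, 396, 639 and 579 with shScrmbl and 512, 496, 437 and 525 with shXbp1. Sec62, which serves post-translational import and ER autophagy, gave 522, 489, 586 and 496 against 495, 491, 500 and 657. The ranges of both genes overlapped. Sec61a1, the subunit that forms the channel, gave 20.1, 50.6, 0 and 55.2 with shScrmbl and 51.2, 38.5, 52.0 and 66.4 with shXbp1, from 15 and 26 counts. Sec63, a partner of the channel, gave 140.4, 54.8, 107 and 110.3 against 222, 120.3, 114 and 113. Sec61b, the beta subunit, gave 160.5, 50.6, 26.6 and 82.7 against 17.1, 91.4, 62.5 and 66.4. The means were higher with shXbp1 for Sec61a1 and Sec63 and lower for Sec61b, and all 3 genes overlapped between viruses. Of the 9 genes 5 were higher and 4 lower by both tests, with medians of 0.03 (limma) and 0.02 (edgeR). The 4 signal peptidase genes had a median of -0.13 by limma, with 1 higher and 3 lower, and of -0.19 by edgeR, with 2 and 2.

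In the glycosylation role, 9 of 10 astrocyte genes were higher by limma (median 0.19) and 7 of 10 by edgeR (median 0.12). Of all genes, 68.2% were higher by limma (median 0.42) and 53.2% by edgeR (median 0.05). Prkcsh, the regulatory subunit of glucosidase II, had a signal of 0, 42.2, 0 and 27.6 with shScrmbl and 51.2, 52.9, 104 and 53.1 with shXbp1. Its groups did not overlap, and shXbp1 replicate 3 was the highest. The log2 difference was 3.42 ± 1.47 by limma (adjusted p = 0.824) and 1.22 by edgeR (adjusted p = 0.761). The pooled ratio of 32 to 11 counts was 2.36, with a counting interval of 1.16 to 5.18 that leaves out the spread between libraries. Ganab, the catalytic subunit of the same enzyme, gave 80.2, 114, 107 and 110.3 against 51.2, 130, 146 and 120, which overlapped. Dad1, an oligosaccharyl transferase subunit and the most abundant of the role, had a mean of 412 ± 124 (SD, n = 4) in shScrmbl and 322 ± 143 (n = 4) in shXbp1.

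Of 9 ERAD genes in astrocytes, 6 were higher by limma and 5 by edgeR, against 68.2% and 53.2% of all genes. Sel1l, the adaptor of the HRD1 ligase, gave 20.1, 54.8, 26.6 and 82.7 with shScrmbl and 119, 91.4, 83.3 and 66.4 with shXbp1. The groups overlapped only through 1 library of each. The log2 difference was 1.13 ± 0.56 (adjusted p = 0.824, limma) and 0.85 by edgeR (adjusted p = 0.834). Herpud1, with the ERSE-II shown above, gave 20.1, 63.3, 26.6 and 27.6 against 34.1, 43.3, 72.9 and 93.0. Vcp, with the UPRE, gave 341, 110, 186 and 138 against 85.3, 192, 260.2 and 266. Both overlapped between viruses. Manf, a secreted ER stress protein and the single measured gene of the ER lumen role, gave 20.1, 29.5, 53.3 and 0 against 17.1, 28.9, 62.4 and 26.6.

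**Figure D2:**
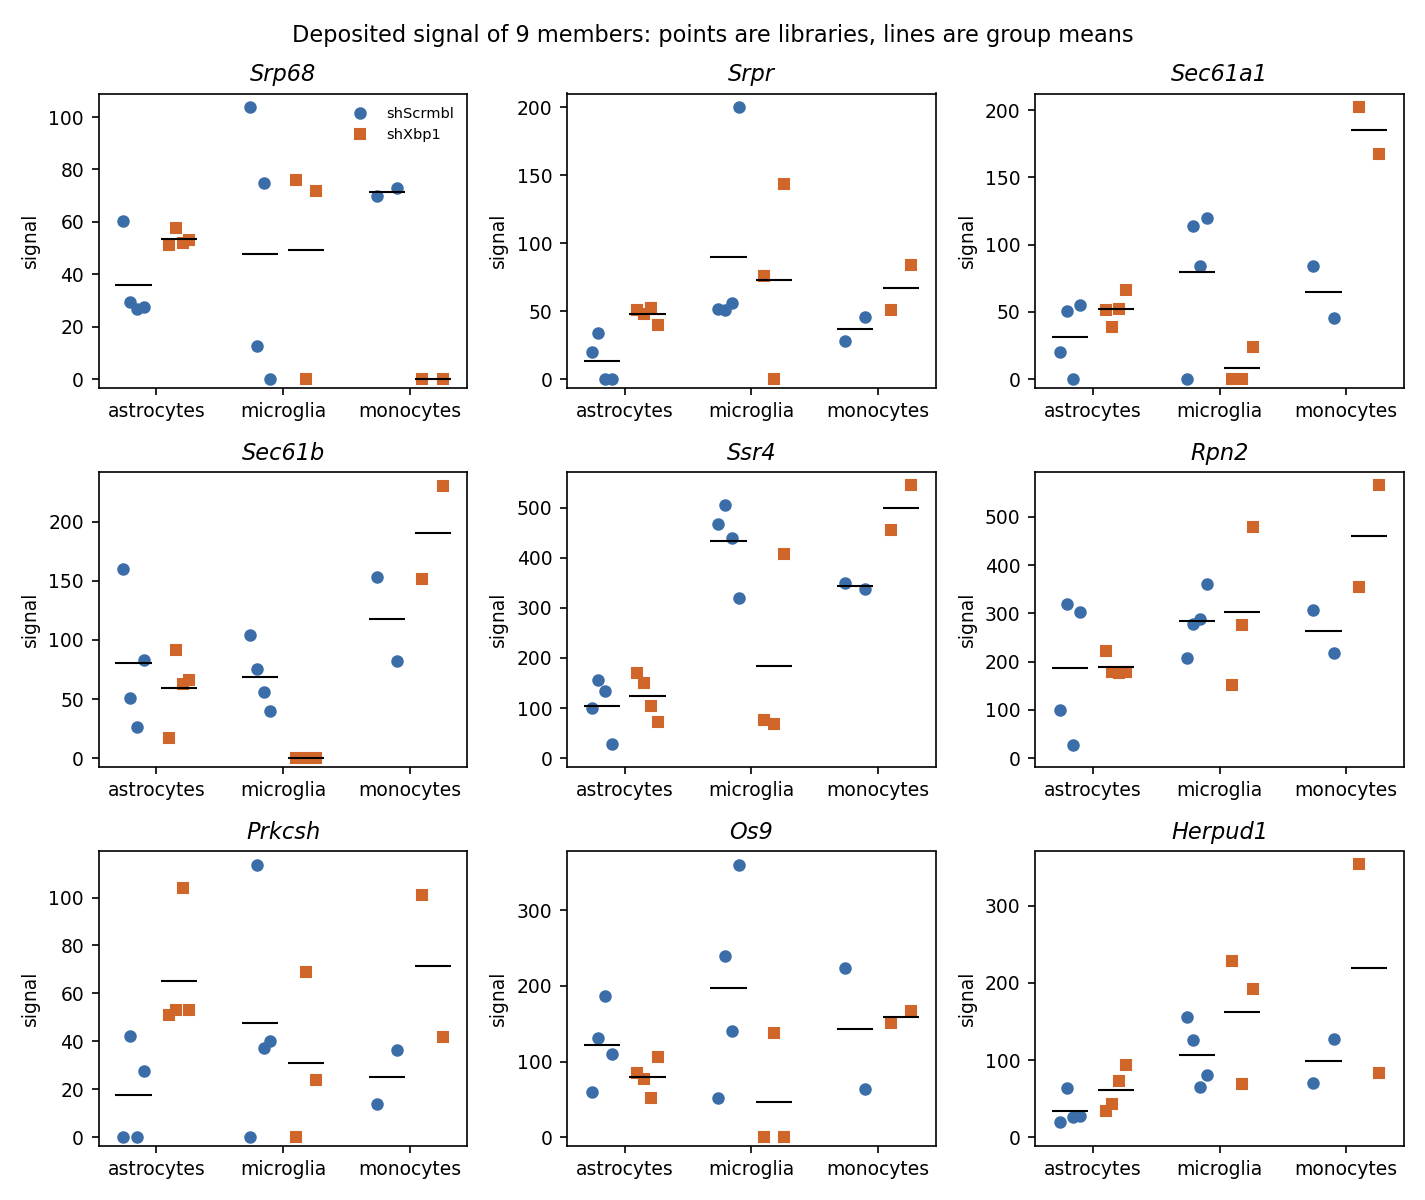
Deposited signal (the authors' scaled counts) of 9 listed genes in every library, chosen after their values were seen, with circles for shScrmbl, squares for shXbp1 and a line at each group mean. The 2 viruses do not overlap for Srpr and Prkcsh in astrocytes, for Sec61b in microglia, and for Srp68, Srpr, Sec61a1, Ssr4, Rpn2 and Prkcsh in monocytes.

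In microglia none of the 33 listed genes passed the test. The Sec61 role had a median below 0 by limma and by edgeR, whereas the median of each other role was below 0 by limma and above 0 by edgeR. Ssr4, Sec61b and Os9 had the smallest limma p-values, with lower means in shXbp1 libraries. limma called 0 of 3066 genes (0%), edgeR 12 (0.391%) and DESeq2 0, and 0 of the 33 were among them. At an unadjusted p under 0.05, limma had 3 of the 33 and 166 of all 3066 genes, edgeR 3 and 168, and DESeq2 1 and 62. limma gave 8 higher and 25 lower, with a median of -0.37 against -0.39 for all genes, whereas edgeR gave 19 higher and 14 lower, with a median of 0.20 against -0.09. Of all genes, 34.5% were higher by limma and 44.6% by edgeR. The log2(signal + 1) scale takes a 0 as a low value, and 11, 7 and 2 of the 33 genes were at 0 in shXbp1 replicates 1 to 3, against 5, 0, 0 and 2 in shScrmbl replicates 1 to 4. Of all genes in those libraries, 32.7%, 25.6% and 3.16% were at 0 in shXbp1 and 0.0652% to 18.5% in shScrmbl. Without shXbp1 replicate 3, the deepest of its group, the edgeR median was -0.41 and 8 genes were higher. Every shXbp1 library was above every shScrmbl library for 0 of the 33 genes, against 2.32% of all genes, and below for 2, Sec61b and Sec61g, against 4.92%.

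The 2 microglia genes with the smallest limma p-values, Ssr4 and Sec61b, belonged to the Sec61 role, while by edgeR the smallest was that of Os9, an ERAD gene. In the Sec61 role 6 of 8 genes were lower by both tests (medians -1.16 and -0.37). Ssr4, the delta subunit of the translocon-associated complex, gave 467, 505, 439 and 320 with shScrmbl and 76.0, 69.0 and 407 with shXbp1. The 2 low values were 1 count each in the 2 shallowest libraries, and the third shXbp1 library lay within the shScrmbl range. Its log2 difference was -1.72 ± 0.54 by limma (adjusted p = 0.795) and -0.83 by edgeR (adjusted p = 0.925). Sec61b, the beta subunit of the channel, gave 104, 75.7, 56.0 and 40.0 with shScrmbl and 0 in all 3 shXbp1 libraries. It passed the filter through the shScrmbl libraries alone, so it could only be lower. With 15 counts against 0, the 95% interval of the pooled ratio ran from 0 to 1.03, so an equal level lay within counting error. The fitted log2 differences of -6.04 ± 2.40 (limma, adjusted p = 0.804) and -4.55 (edgeR, adjusted p = 0.497) depend on how a 0 is treated. Setting Sec61b to a floor of 3 counts over the shXbp1 group left both medians over the 33 genes as they were. Sec61g gave 727, 656, 635 and 840.0 against 532, 345 and 551, and was lower in every shXbp1 library. Sec61a1 gave 0, 114, 84.0 and 120.0 against 0, 0 and 23.9.

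Outside the Sec61 role, Os9 and Srp14 had the smallest limma p-values in microglia. Os9, the ERAD lectin that reads trimmed glycans, gave 51.9, 239.8, 140.0 and 360.0 with shScrmbl and 0, 138 and 0 with shXbp1. The shXbp1 signal of 138 was 2 counts, so the pooled ratio of 2 to 44 counts was 0.168. Its counting interval of 0.0197 to 0.644 leaves out the spread between libraries. The log2 difference was -4.95 ± 2.07 by limma (adjusted p = 0.804) and -2.62 by edgeR (adjusted p = 0.245). Without shXbp1 replicate 2, the library that held those counts, edgeR called Os9 (log2 difference -6.24, adjusted p = 0.0406), 1 listed gene beside 11 of all 3067 genes in that fit (0.359%). In that fit Os9 was at 0 in every shXbp1 library left and passed the filter through shScrmbl alone. It could then only be lower, so the call is no support for a difference. Over the other 6 libraries left out in turn, the edgeR adjusted p of Os9 lay between 0.0991 and 0.9998. Srp14 gave 260, 177, 196 and 240.0 against 76.0, 69.0 and 215, with a log2 difference of -1.04 ± 0.56 (adjusted p = 0.804, limma) and -0.41 by edgeR (adjusted p = 0.996). All 5 SRP genes were lower by limma and 4 of 5 higher by edgeR. Herpud1 gave 156, 126, 65.3 and 80.0 with shScrmbl and 228, 69.0 and 192 with shXbp1, which overlapped. The summed signal of 10 monocyte and macrophage markers, of which 8 were in the table, was 4620 to 21944 with shScrmbl and 1976 to 8141 in shXbp1 microglia, which overlapped. Oligodendrocyte markers, 2 of 8 in the table, summed to 345 to 520 with shScrmbl and 670 to 1518 with shXbp1, with no overlap. Choroid plexus markers, 3 of 8, summed to 18000 to 63792 and 33254 to 42951, which overlapped. The part of these sums in the differences was not tested.

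**Figure D3:**
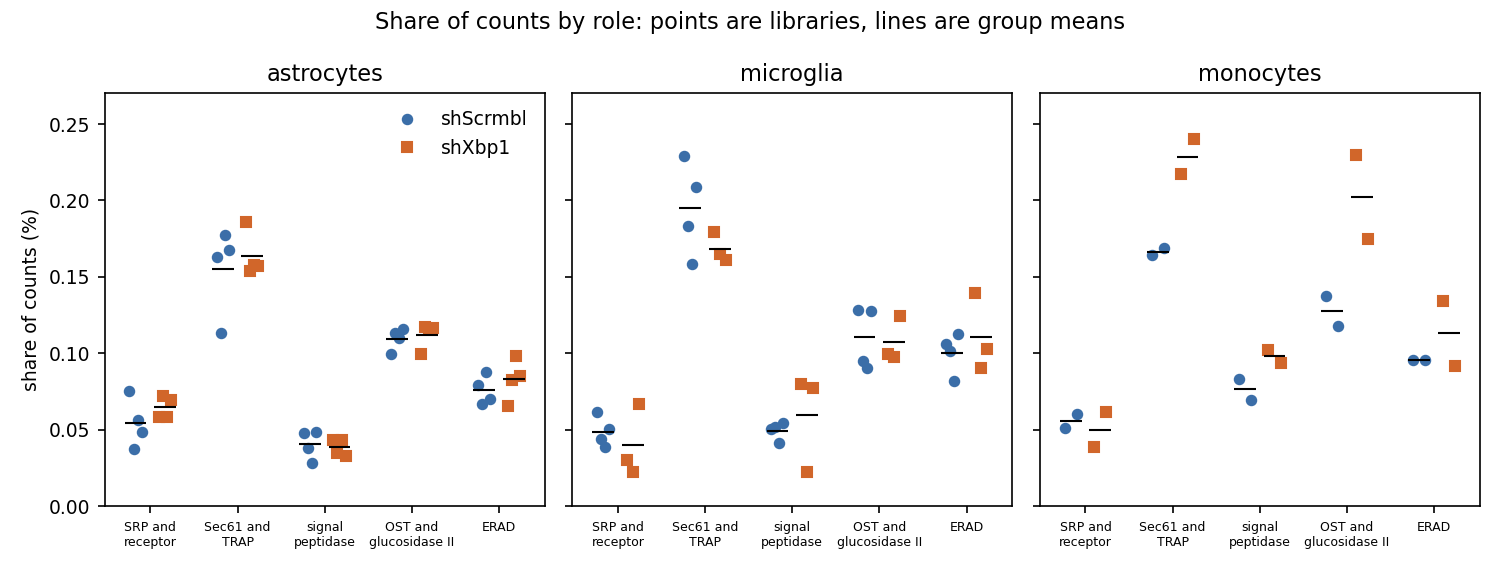
Percent of counts in the genes of 5 roles, with 1 point per library (circles shScrmbl, squares shXbp1) and a line at each group mean. In monocytes the Sec61 and translocon-associated genes and the oligosaccharyl transferase and glucosidase II genes are higher in both shXbp1 libraries than in both shScrmbl libraries, while SRP and ERAD overlap.

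In monocytes, the summed shares of 3 roles, the Sec61 role, glycosylation and signal peptidase, were higher in both shXbp1 libraries than in both shScrmbl libraries, and those of SRP and ERAD overlapped. No gene of the first 3 roles passed a test. In replicate order, the Sec61 and translocon-associated role took 0.164% and 0.169% of counts in shScrmbl and 0.217% and 0.240% in shXbp1 libraries. The oligosaccharyl transferase and glucosidase II role took 0.137% and 0.118% against 0.230% and 0.175%, and signal peptidase took 0.0834% and 0.0692% against 0.102% and 0.0936%. The SRP role took 0.0511% and 0.0604% against 0.0383% and 0.0618%, and ERAD 0.0955% and 0.0959% against 0.134% and 0.0918%. Some genes went against the sum of their role. Sec63 gave 97.8 and 45.5 with shScrmbl and 0 and 41.9 with shXbp1, Sec62 gave 279 and 409.8 against 253 and 314, and Spcs1, an accessory subunit of signal peptidase, had means of 242 and 191. These shares are descriptions of 2 libraries a group, and no test was made over a role.

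**Figure D4:**
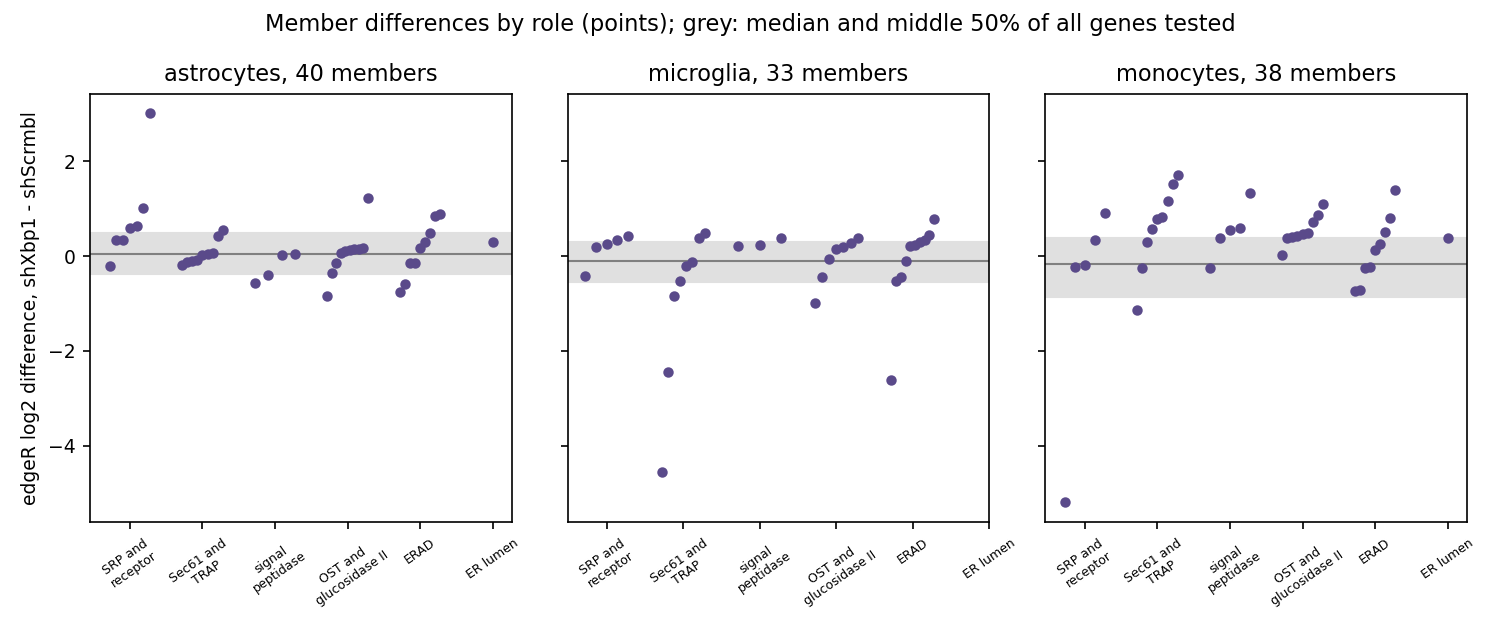
edgeR log2 difference, shXbp1 minus shScrmbl, of each listed gene (points, ordered within a role) in the 3 cell types, with a grey line at the median and a grey band over the middle 50% of all genes tested. In monocytes 28 of 38 points are above 0, against 43.1% of all genes, and the gene farthest below is Srp68 (-5.19).

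Of the 38 genes in monocytes, limma called 1, Srp68, against 101 of 3775 genes in all (2.68%). edgeR called 1 gene of the table (0.0265%), which was not a listed gene, and DESeq2 called 0. At an unadjusted p under 0.05 limma had 1 of the 38 and 180 of all 3775 genes, edgeR 1 and 176, and DESeq2 0 and 21. Of the 101 genes limma called, 99 were at 0 in both shXbp1 libraries, and 99 of the 101 tested genes at 0 in both of them were called, while no tested gene was at 0 in both shScrmbl libraries. limma gave 23 higher and 15 lower, with a median of 0.44 against -0.42 for all genes, and edgeR 28 and 10, with a median of 0.41 against -0.17. Of all genes, 34.2% were higher by limma and 43.1% by edgeR. By edgeR all 9 glycosylation genes, 7 of 9 Sec61 genes and 4 of 5 signal peptidase genes were higher, and by limma 7, 6 and 3 were. Both shXbp1 libraries were above both shScrmbl libraries for 12 of 38 genes, against 9.85% of all genes, and below for 4, against 25% of all genes. Among genes with a mean signal of at least 50, a set added after the data were seen, these were 11 of 31 above, against 324 of 2742, and 1 of 31 below, against 564. Without shXbp1 replicate 2 the edgeR median was 0.12. The medians with Srp68 at a floor of 3 counts over the shXbp1 group were the same.

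Srp68, a protein subunit that anchors on the RNA of SRP, had a signal of 69.9 and 72.8 with shScrmbl and 0 in both shXbp1 monocyte libraries. It passed the filter through shScrmbl alone, so it could only be lower. With 13 counts against 0, the 95% interval of the pooled ratio ran from 0 to 0.849, which covers counting error only. The limma log2 difference was -6.18 ± 1.50 (adjusted p = 0.0107), and edgeR gave -5.19 (adjusted p = 0.922). With its direction fixed, neither the interval nor the limma call is support for a difference. The limma call was lost with a pseudocount of 10 (-3.02, adjusted p = 0.702) and without either shScrmbl library (adjusted p = 0.995 and 0.992). In astrocytes Srp68 was 60.2, 29.5, 26.6 and 27.6 with shScrmbl and 51.2, 57.8, 52.0 and 53.1 in shXbp1, the opposite order of means.

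Sec61a1 gave 83.8 and 45.5 with shScrmbl and 202 and 167 in shXbp1 monocytes, with no overlap. Its log2 difference was 1.56 ± 0.77 by limma (adjusted p = 0.887) and 1.51 by edgeR (adjusted p = 0.929). Derl1, an ERAD membrane protein that helps move substrates out of the ER, gave 27.9 and 27.3 against 152 and 41.9, with a log2 difference of 1.50 ± 1.07 (adjusted p = 0.887, limma). Ssr2, the beta subunit of the translocon-associated complex, gave 140 and 100.2 against 152 and 335, with 0.92 ± 0.74 (adjusted p = 0.887, limma). None of these 3 passed the test. The other complex subunits had the same order, with Ssr1 at 55.9 and 91.1 against 101 and 147, Ssr3 at 0 and 36.4 against 101 and 62.8, and Ssr4 at 349 and 337 against 455 and 544. Rpn2, an oligosaccharyl transferase subunit, gave 307 and 219 against 354 and 565. Prkcsh gave 14.0 and 36.4 against 101 and 41.9. Sec11a and Sec11c, the catalytic subunits of signal peptidase, gave 182 and 100.2 against 202 and 209, and 140 and 164 against 253 and 209. Edem1 gave 83.8 and 137 against 152 and 167, and Srpr gave 27.9 and 45.5 against 50.6 and 83.7. The 4 genes lower in both shXbp1 libraries were Srp68, Sec63, Derl2 and Sels, and Sels, a membrane protein of the ERAD complex, gave 112 and 91.1 against 50.6 and 62.8. Herpud1 was at 69.9 and 127 against 354 and 83.7, so that its higher mean came from 1 library.

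Several marker sums differed between the same monocyte libraries. Monocyte and macrophage markers, 9 of 10 in the table, summed to 19452 and 18266 in shScrmbl and to 4752 and 15179 in shXbp1. T and NK cell markers, 6 of 8 in the table, with Cd3e and Trac not in it, summed to 3074 and 2040 against 3590 and 3831. B and plasma cell markers, 3 of 8, summed to 713 and 1876 against 1517 and 1612, and choroid plexus markers, 2 of 8, to 3745 and 4826 against 8039 and 5192. Neutrophil markers, 7 of 8, summed to 824 and 738 against 253 and 147. The shXbp1 library with the lowest monocyte sum, replicate 1, held 15654 counts. The part of cell makeup and of depth in the higher shares was not tested.

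The virus difference itself was compared between cell types over the 2606 shared genes. Neither contrast called a listed gene or any gene by limma (0% for microglia minus astrocytes and 0% for monocytes minus astrocytes) or by edgeR (0% and 0%). At an unadjusted limma p under 0.05 there were 6 of 31 in the first contrast and 1 of 31 in the second, against 179 and 110 of 2606 genes. Both contrasts use the same astrocyte libraries. Sec61b had a difference of differences of -5.68 ± 1.51 for microglia against astrocytes (adjusted p = 0.461, limma, and 0.918, edgeR), and Ssr4 one of -2.15 ± 0.83 (adjusted p = 0.706). Sec61b was at 0 in all 3 shXbp1 microglia libraries, so its difference within microglia could only be negative. Without microglia shXbp1 replicate 3, limma called 3 of the 31 genes in that contrast, Ssr4 among them (-2.97, adjusted p = 0.0376), and 84 of all 2606 genes (3.22%). The shXbp1 microglia libraries then left held 10039 and 13321 counts, and Ssr4 was 1 count in each. Without replicate 2 limma called 1 of the 31 and 3 of all genes (0.115%). Over the alternatives the smallest limma adjusted p of Sec61b was 0.0369, with its direction fixed as above. These calls with a library left out are no support for a difference. For monocytes against astrocytes the smallest p-values were those of Srp68 (-6.82 ± 2.68, adjusted p = 0.915) and Sec63, which recruits the chaperone BiP to the channel (-3.85 ± 2.35, adjusted p = 0.998). Srp68 was at 0 in both shXbp1 monocyte libraries, so its difference within monocytes could likewise only be negative. Of the 31 genes, 4 had a higher mean signal with shXbp1 in all 3 cell types, Sec11a, Rpn1, Rpn2 and Herpud1. A lower one in all 3 was seen for 2, Ost4 and Ufd1l. Of these 6, only Rpn1 and Herpud1 kept their direction in every cell type by both limma and edgeR. Some means were nearly equal, with ratios of 1.01 for Rpn2 in astrocytes and 0.991 for Ost4 in monocytes. The share of all shared genes with such an order was not computed. None of these 6 passed the test in any cell type.

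Neighbouring genes of the same pathways, 70 in number and not among the 45, were in the tables for 36 (astrocytes), 15 (microglia) and 23 (monocytes). In astrocytes 26 of 36 were higher by limma, against 68.2% of all genes, and 0 were called. In microglia 6 of 15 were higher, against 34.5% of all genes by limma, and 0 were called. limma called no gene of either table. In monocytes 8 of 23 were higher by limma and 14 of 23 by edgeR, with medians of -0.45 and 0.18. Of all genes 34.2% and 43.1% were higher, with medians of -0.42 and -0.17. limma called 1 of the 23, against 2.68% of all genes. That gene was Erlin2, an ERAD adaptor, with a mean signal of 45.8 with shScrmbl and 0 in both shXbp1 libraries (log2 difference -5.44 ± 1.12, adjusted p = 0.00516, limma). edgeR did not call it. Like Srp68 it passed the filter through shScrmbl alone and could only be lower, so the limma call is no support for a difference. Srprb, the second receptor subunit of SRP, had means of 64.4 and 10.5 in monocytes (adjusted p = 0.887, limma). In astrocytes Alg3, a mannosyltransferase that builds the glycan precursor, had means of 48.3 with shScrmbl and 6.93 in shXbp1 (log2 difference -3.51 ± 1.49, adjusted p = 0.824, limma). Faf2, an ERAD protein that recruits VCP, had 51.3 and 101 (0.97 ± 0.50, adjusted p = 0.824). In microglia Dpm1, which makes the mannose donor for glycans, had 75.9 and 23.9 (adjusted p = 0.804), and Emc1, an insertase subunit, had 197 and 110 (adjusted p = 0.814).

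Across cell types the listed genes had levels of the same order. Since the tables were normalized separately, levels were set side by side as CPM (counts scaled to a total of 1000000) of the 2606 shared genes, with no test, and 3′ counting gives a level per transcript without a length term. The shared genes include the choroid plexus markers Ttr and Enpp2. Choroid plexus markers in each table summed to a signal of 148274 to 308624 in astrocytes, 18000 to 63792 in microglia and 3745 to 8039 in monocytes. Such transcripts lower the CPM of all other genes, most in astrocytes, and levels without them were not computed. Together the 31 shared genes took 0.511% ± 0.0549 (SD, n = 8) of those counts in astrocytes, 0.501% ± 0.0754 (n = 7) in microglia and 0.587% ± 0.0857 (n = 4) in monocytes. The highest mean was in astrocytes for 10 genes, in microglia for 7 and in monocytes for 14, against 36.0%, 31.6% and 32.3% of all shared genes. The ratio of the highest to the lowest cell type had a median of 1.93, against 2.07 over all shared genes. On this scale Sec61g was nearly level, at 639.8 ± 145 (SD, n = 8), 631 ± 165 (n = 7) and 626 ± 204 (n = 4) in astrocytes, microglia and monocytes.

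For 4 genes, Ssr4, Spcs2, Sec62 and Derl2, the libraries of some pair of cell types did not overlap. These CPM carry the choroid plexus limit given above. Ssr4 was at 139 ± 60.6 (SD, n = 8) in astrocytes, 320.0 ± 169 (n = 7) in microglia and 460.0 ± 130 (n = 4) in monocytes, and every monocyte library was above every astrocyte library. Spcs2, an accessory subunit of signal peptidase, was at 125 ± 40.2, 187 ± 68.8 and 269 ± 49.9, again with every monocyte library above every astrocyte library. These were 2 of 31 genes, against 11.1% of all shared genes in that order. Sec62 was at 655 ± 110, 482 ± 200 and 339 ± 68.6, and each astrocyte library was above each monocyte library, against 4.57% of all shared genes. Derl2 was at 31.0 ± 31.4, 103 ± 30.2 and 35.9 ± 25.3, with each microglia library above each monocyte library. That was 1 of 31 genes, against 2.07% of all shared genes. In the other 27 genes the libraries of every pair of cell types overlapped. By the ratio of the highest to the lowest mean, Sec61b came first with 4.26, between monocytes (166 ± 58.1) and microglia (39.0 ± 43.5), then Sec63, then Herpud1 (3.33), Derl2 (3.33) and Ssr4 (3.30).

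**Figure D5:**
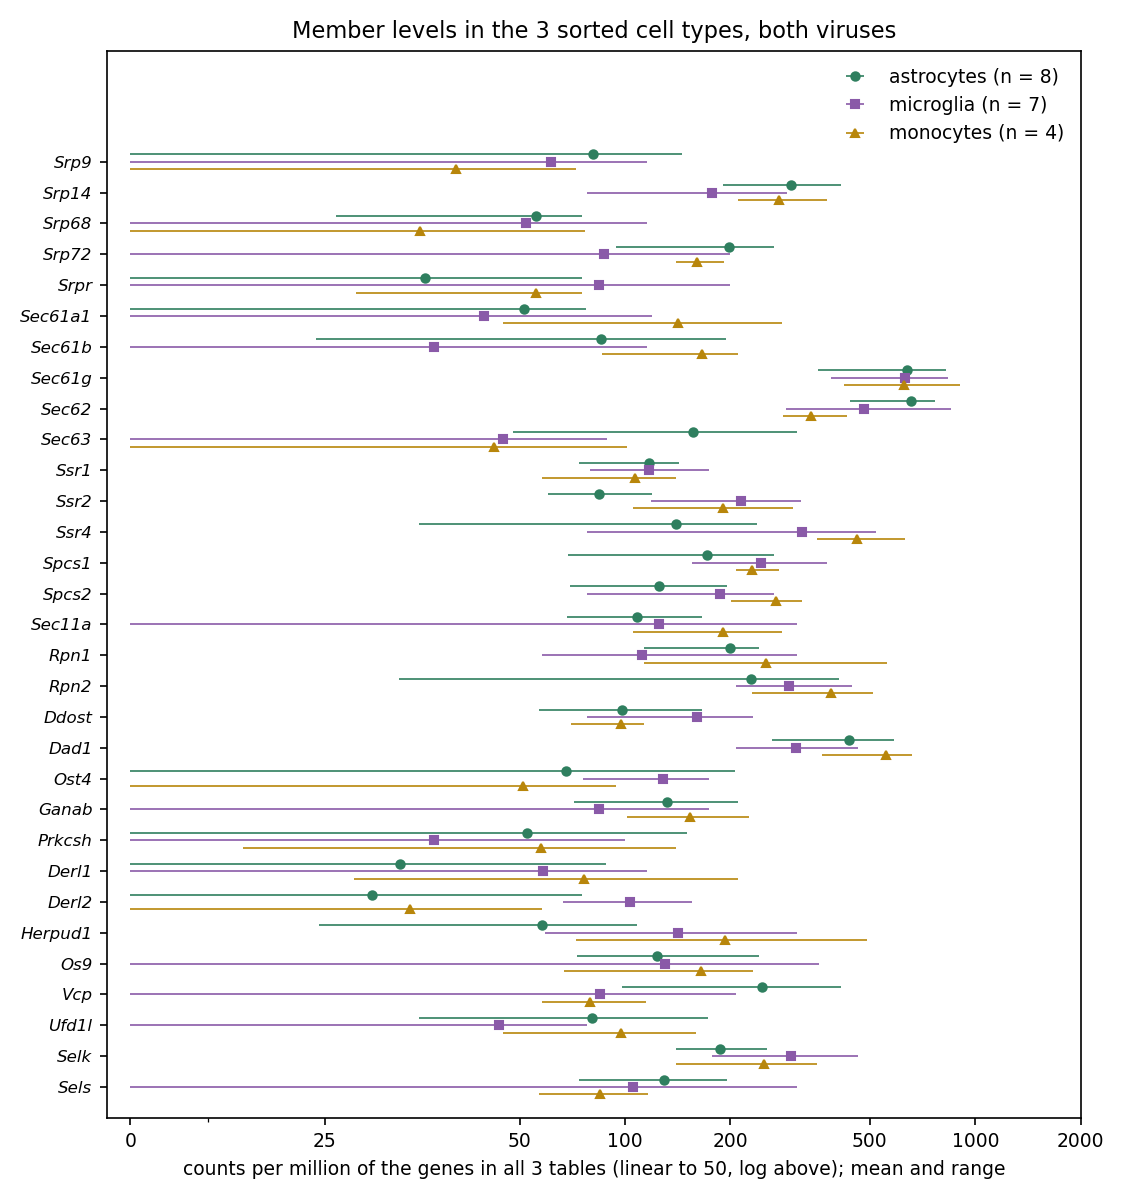
Mean (marker) and range (line) of the 31 shared genes over all libraries of a cell type, both viruses, in CPM of the genes in all 3 tables, on an axis that is linear to 50 and logarithmic above. Sec61g is nearly level, Ssr4 and Spcs2 are higher in every monocyte library than in every astrocyte library, and Sec62 has the opposite order.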

How the data were processed

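Sorted astrocytes, microglia and monocytes were counted by 3′ digital gene expression, per the labels' protocols. The authors deposited 1 table per cell type that gives a normalized signal for each gene. BWA 0.7.10, limma 3.34.1 and the build mm10 appear, without their roles, in the submitters' processing notes, and the counter and annotation are not given in the sources used here. Each signal above 0 was a whole multiple of the column's smallest value (100% within 0.01 of a count), and the geometric mean of column totals was 1000000, so counts were recovered by division.

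Each table was tested alone, shXbp1 against shScrmbl, with limma 3.58.1 (trend, robust) on log2(signal + 1) in R 4.3.3, for genes that reached a signal of 1 in at least the number of libraries that the smaller group holds. Genes were called at a Benjamini-Hochberg adjusted p under 0.05. Where a gene is at 0 in some libraries, a log2 difference on this scale can be larger than by edgeR. For Srpr in astrocytes it was 3.22 against 1.02. edgeR 4.0.16 (quasi-likelihood, trimmed mean of M-values) and DESeq2 1.42.0 on recovered counts are given beside it, and edgeR called 1, 12 and 1 genes. The difference of virus effects was fitted in limma and edgeR over the 2606 shared genes. Intervals are at 95%, and 3 counts over a group stood in for 0 where a floor is named. Those of pooled ratios rest on counts summed over the libraries of a group, and leave out the spread between libraries. Other alternatives were a pseudocount of 10, other filters, quantile normalization, thinning, a replicate block and leaving out each library.

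The listed genes, roles, neighbouring pathway genes and markers were chosen with earlier results of these data known. Every listed gene may be given by its values. A log2 difference is given for called genes and for the 4 with the smallest limma p per cell type (2 per contrast of effects, and 2 of the neighbouring genes), and Xbp1 is given as the targeted gene. Shares, non-overlap and levels are descriptions. Python 3.11.15, with pandas 2.3.3, numpy 2.4.6, scipy 1.17.1 and matplotlib 3.10.9, was used for the rest.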

Additional observations from a re-analysis of the deposited data

Results flagged for a closer look

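In 32 groups of 4 astrocyte or microglia libraries examined for a single library far from the rest, 6 stood out by Dixon's ratio above 0.829, and chance alone flags about 1 in 20 such groups. All 6 were in astrocytes. In shScrmbl, replicate 2 had the lowest share of counts in the listed genes, 0.370%, with the next at 0.451%, and the highest sums of microglia markers (3032, with the next at 855) and of monocyte and macrophage markers (3821, with the next at 552) in its group. In the same library Srp54a had a signal of 4.22 while the other 3 were at 0, and that is 1 count in the deepest library. In shXbp1, replicate 1 had the highest share of the Sec61 and translocon-associated genes, 0.186%, with the next at 0.158%. It also had the lowest share of the oligosaccharyl transferase and glucosidase II genes, 0.0996%, with the next at 0.116%. In shXbp1 replicate 3, Manf took 0.00703% of counts, with the next library at 0.00271%, and Prkcsh had a signal of 104, with the next at 53.1.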

How the results depend on the processing

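In astrocytes no listed gene was called under any alternative, and the limma median stayed above 0. With a mean signal of at least 50 there were 15 listed genes higher, of 26, against 62.6% of all genes at that level. edgeR, edgeR with no filter and thinned counts called 1 gene of the table each, and edgeR called 1 to 8 with a library left out. In microglia edgeR called 12 genes with or without the filter, quantile normalization 6 and thinned counts 4, against 0 by limma, and limma called 0 to 3 with a library left out. Listed genes higher were 19 by edgeR with or without the filter and by quantile normalization, 18 by DESeq2, 14 after thinning and 6 to 17 with a library left out. The median was 0.20 by edgeR with or without the filter and -1.05 to 0.041 with a library left out. For edgeR with a library left out, microglia gave 0 to 23 genes called, 0 to 1 listed genes called, 8 to 21 higher and a median of -0.41 to 0.22. In monocytes a pseudocount of 10, a mean signal of at least 50, DESeq2, quantile normalization and thinning called 0 genes and 0 listed genes. edgeR with or without the filter called 1 gene and 0 listed genes. Leaving out a library gave 0 to 1163 genes and 0 to 7 listed genes. A lone library left in a group was assumed to vary like the other group. The monocyte median was 0.60 after quantile normalization, 0 after thinning and 0.13 to 0.58 with a library left out. For edgeR it was 0.12 to 0.49, with 0 to 61 genes called. In the contrast of microglia and astrocyte effects, 0 to 3 listed genes were called with a library left out. The cause of these shifts was not tested. No direction that had been called reversed. Leaving out libraries under edgeR, and the set with a mean signal of at least 50 as background, were added after the data were seen.

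With the replicate number as a block, limma called 0 genes in astrocytes, 0 in microglia and 112 in monocytes, with 0, 0 and 1 listed genes called and medians of 0.11, -0.53 and 0.44. Deviations of libraries with the same number correlated at -0.08 to 0.06, and the labels do not tie a number to an animal or a batch.

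Depth limits these results: 3 counts corresponded to a signal of up to 82.7 in astrocytes, 228 in microglia and 152 in monocytes, and many listed genes lay below that.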

Other observations

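The catalytic subunits of the oligosaccharyl transferase, Stt3a, which works beside the Sec61 channel, and Stt3b, which also acts after translation, were in the astrocyte and monocyte tables. In astrocytes Stt3a gave 20.1, 80.1, 0 and 27.6 with shScrmbl and 17.1, 67.4, 31.2 and 73.0 with shXbp1, and Stt3b gave 40.1, 29.5, 0 and 82.7 against 102, 14.4, 41.6 and 33.2. In monocytes Stt3a gave 83.8 and 100.2 against 202 and 83.7, and Stt3b gave 97.8 and 27.3 against 152 and 41.9. All 4 comparisons overlapped. Selk, a selenoprotein that binds Derlins, was among the more abundant ERAD genes in each cell type, at 110.3 to 219 in shScrmbl and 102 to 221 in shXbp1 astrocytes, 196 to 415 and 207 to 359 in microglia, and 210 to 337 and 101 to 314 in monocytes, again with overlap.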
